A study of Mus musculus with 2 samples.

Results

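The cadherins and protocadherins of the embryonic mouse limb were taken from tables of total RNA-seq as every protein-coding gene whose symbol is Cdh followed by a number or begins with Pcdh. The rule gave 92 gene rows with 91 symbols, of 21474 protein-coding genes and 43346 mouse genes in the tables, because the symbol Pcdha11 stands on 2 gene identifiers. They are 23 Cdh genes, 12 protocadherins outside the gene clusters and 57 clustered protocadherins. The limbs came from healthy embryos of strain B6NCrl at 15.5 days, males and females pooled, and neither the limb pair nor the level of the cut is stated in the labels. The only group has 2 biological replicates, each a pool of many animals: replicate 1 held 78 embryos and replicate 2 held 62 embryos. With 1 group the design holds no contrast between conditions, no test between the pools can be made, and no p-value is given.

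Levels are the deposited TPM (a measure of transcripts scaled by their length and by library size) in each library, and a mean carries its SD (n = 2). Replicate 1 held 35104685 estimated reads and replicate 2 held 41757268. A pair of TPM values or read numbers with no label belongs to replicate 1 and replicate 2, in that order. The libraries were made from 10 ng of RNA each, and the SD holds the spread of the pools together with that of the library preparation. A gene was counted as detected where each library gave 1 TPM or more. In tissue of many cell types, fewer cells of a type and less RNA per cell cannot be told apart, and no level below belongs to a named cell.

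Cadherins are membrane proteins whose extracellular repeats bind calcium and, in the classical members, pair with the same or a related cadherin on a neighbouring cell. The tails of classical cadherins bind p120 catenin and beta-catenin or plakoglobin, and alpha-catenin joins that complex to actin. Classical cadherins fall into type I, such as E-cadherin of epithelia and N-cadherin of nerve and mesenchyme, and type II, such as VE-cadherin of blood vessels. Protocadherins lack the catenin-binding tail and adhere more weakly. The alpha, beta and gamma protocadherins lie in tandem arrays in which each gene has its own first exon, and the alpha and gamma genes splice that exon to constant exons shared by their array. In neurons, cells choose among these first exons, and the combinations let a neuron tell its own branches from those of others.

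All members together held 0.0792% ± 0.00135 of the TPM of mouse genes (SD, n = 2), with sums of 742 TPM in replicate 1 against 761 TPM in replicate 2. The Cdh genes held 54.3% ± 1.04 of that sum, the clustered protocadherins 24.6% ± 0.6 and the other protocadherins 21.2% ± 1.64. Of the 92 rows, 59 (64.1%) were detected, 31 were below 1 TPM in both libraries and 2, Cdh19 and Pcdhgc5, were above it only in replicate 1. Over all protein-coding genes the detected share was 62.7%, so the share of members detected was near the background. The levels were lower than that of the usual gene. The median member had 1.98 TPM in replicate 1 and 1.82 in replicate 2, where the median protein-coding gene had 5.55 and 5.39 TPM, and 13 members (14.1%) reached 10 TPM in both libraries, against 41.3% of protein-coding genes.

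The sum rested on few genes. The 5 members of highest mean level, Cdh11, Pcdh18, Cdh1, Pcdhgc3 and Pcdhgc4, held 53.8% of member TPM in replicate 1 and 56.5% in replicate 2. Each of these stood above the next, and Pcdhgc4 above Pcdh9, in both libraries without overlap of the values. The place of Pcdhgc4 rests on a single transcript that lies mostly in shared exons, Pcdhgc4-203. Without it the gene had 4.31 TPM in replicate 1 and 5.10 in replicate 2 and ranked 20 among the members, below Pcdh9. The genes that followed, Pcdh9, Cdh3, Cdh5, Cdh15 and Cdh2, overlapped from neighbour to neighbour. The order of these neighbours is not settled, although Pcdh9 stood above Cdh3 within each library. Pcdh9, Cdh3 and Cdh5 each stood above Cdh2 without overlap of the values. Over all 59 neighbouring pairs among members averaging 1 TPM or more, the values overlapped in 47 and did not in 12.

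**Figure D1:**
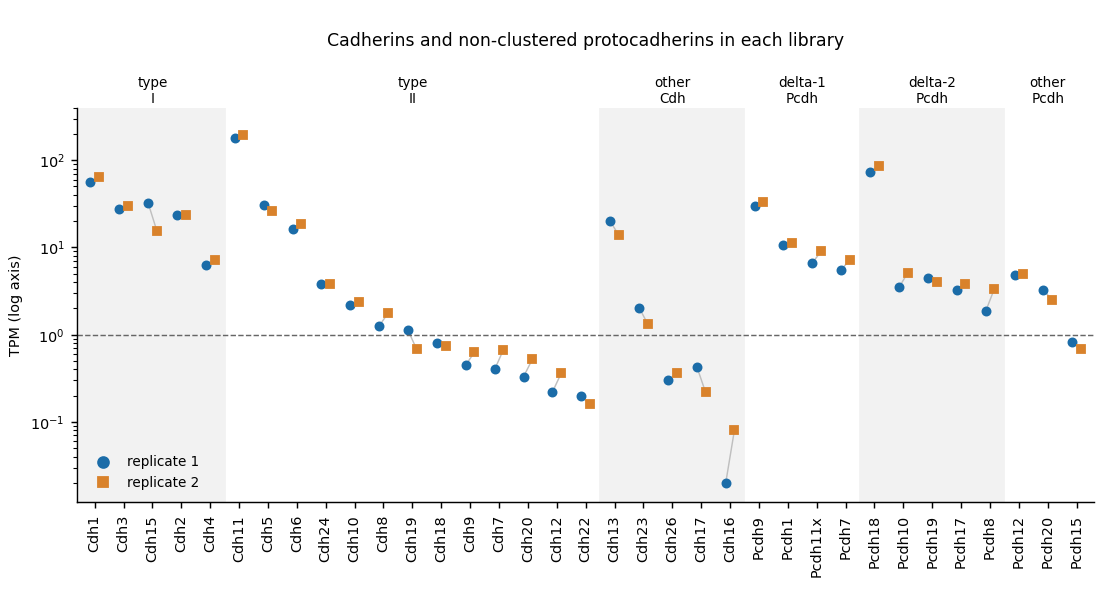
TPM (log axis) of each Cdh gene and each non-clustered protocadherin in replicate 1 (circles) and replicate 2 (squares), grouped by class and ordered by mean level, with a dashed line at 1 TPM. Cdh11 with 181 and 195 TPM and Pcdh18 with 73.9 and 85.0 TPM stand highest, and all 4 delta-1 and all 5 delta-2 protocadherins lie above the line in both libraries.

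Among the 5 type I cadherins, which bind their own kind through a conserved tryptophan, all were detected, with sums of 146 TPM in replicate 1 against 140 TPM in replicate 2. Cdh1, E-cadherin of epithelial adherens junctions, had 56.9 TPM in replicate 1 against 64.0 TPM in replicate 2. Cdh3, P-cadherin, known from the basal layer of the epidermis and from hair placodes, had 27.3 and 30.1 TPM. These genes neighbour each other on chromosome 8 (GRCm38, Cdh3 at chr8:106510891-106557297 and Cdh1 at chr8:106603351-106670246). The log2 ratio of Cdh3 to Cdh1 was -1.07 ± 0.02 (SD, n = 2), the closest agreement between the pools among the listed pairs of genes. Cdh2, N-cadherin, had 23.4 TPM in both libraries, and Cdh2 lay below Cdh1 by a log2 ratio of -1.36 ± 0.12. Cdh4, R-cadherin, had 6.33 and 7.22 TPM, the lowest of the type. Cdh15, M-cadherin of myoblasts and satellite cells (chr8:122847966-122867397), had 32.3 TPM in replicate 1 against 15.6 TPM in replicate 2. It was the only type I gene whose pools stood far apart, and its place above or below Cdh2 turned with the pool: the log2 ratio of Cdh15 to Cdh2 was 0.46 in replicate 1 and -0.58 in replicate 2.

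The 13 type II cadherins spanned 3 orders of magnitude on the TPM scale. Cdh11, OB-cadherin of mesenchyme and bone-forming cells (chr8:102632095-102785642), had 181 TPM in replicate 1 against 195 TPM in replicate 2. It was the highest of all members, ranked 780 among protein-coding genes, and held 46.2% ± 2.48 of the TPM of Cdh genes. Per length it lay 8.01-fold above Cdh2 on average, with log2 ratios of 2.95 in replicate 1 and 3.06 in replicate 2. Cdh5, VE-cadherin of endothelial junctions (chr8:104101625-104144511), had 31.0 and 25.8 TPM, and Cdh6, K-cadherin, known from developing kidney and nervous system, had 16.2 and 18.5 TPM. Cdh24 with 3.81 and 3.85 TPM, Cdh10 with 2.17 and 2.34 TPM and Cdh8 with 1.26 and 1.75 TPM were the other detected genes of the type. Cdh8 and Cdh10 are known from brain. Cdh19, known from neural crest and Schwann cell precursors, straddled the limit with 1.12 and 0.68 TPM. Cdh18, Cdh9, Cdh7, Cdh20, Cdh12 and Cdh22, which are known mainly from nervous tissue, lay between 0.16 and 0.80 TPM, with 16 to 55 reads in each library. All 13 type II genes had at least 10 reads in both libraries, so that the low ones were measured above the limit of 3 reads that a count of 0 allows. Summed, type II exceeded type I by a log2 ratio of 0.77 ± 0.09, or 1.71-fold, and Cdh11 made up 76.7% ± 1.36 of the type II sum.

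Of the 5 Cdh genes outside these types, 2 were detected. Cdh13, T-cadherin, which is anchored by a lipid in place of a membrane-spanning tail and binds adiponectin, had 19.9 TPM in replicate 1 against 13.8 TPM in replicate 2. Cdh23, a tip-link protein of inner-ear hair cells, had 2.04 and 1.33 TPM from 60 and 48 reads. Both stood higher in replicate 1. Cdh26 with 0.30 and 0.36 TPM and Cdh17, LI-cadherin of gut, with 0.43 and 0.22 TPM were below the limit. Cdh16, KSP-cadherin of kidney tubules, was at the bottom with 1 read in replicate 1 and 6 reads in replicate 2. By position, chromosome 8 carried 8 of the 23 Cdh genes and 85.4% ± 0.486 of their TPM (SD, n = 2). Of those 8 genes 7 were detected, Cdh16 being the exception. Chromosome 15 carried 5 Cdh genes, of which Cdh6 and Cdh10 were detected, with 5.21% ± 0.47 of the TPM of Cdh genes.

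Non-clustered protocadherins are divided by their conserved tail motifs into delta-1 and delta-2, and all 4 delta-1 and all 5 delta-2 genes were detected. Pcdh18, a delta-2 gene whose protein binds the adaptor Dab1 in mouse, had 73.9 TPM in replicate 1 against 85.0 TPM in replicate 2. It was the highest protocadherin of the limb, ranked 2064 among protein-coding genes, and held 49.9% ± 0.182 of the TPM of its class of 12 genes. The other delta-2 genes were far lower. Pcdh19, which is linked to epilepsy in people, had 4.42 and 3.98 TPM, so that Pcdh18 stood 18.5-fold above it (log2 ratio 4.21 ± 0.25). Pcdh10, known from forebrain wiring, had 3.48 and 5.11 TPM and Pcdh17, known from basal ganglia circuits, had 3.29 and 3.84 TPM. Pcdh8, the paraxial protocadherin of somites, had 1.85 TPM in replicate 1 against 3.35 TPM in replicate 2, from 151 and 345 reads.

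Within delta-1, Pcdh9 led with 29.6 TPM in replicate 1 against 33.0 TPM in replicate 2, followed by Pcdh1, known from airway and skin epithelium, with 10.7 and 11.2 TPM. Pcdh11x had 6.64 and 9.01 TPM, and Pcdh7, known from the frog embryo as NF-protocadherin of ectoderm, had 5.56 and 7.23 TPM. All 4 delta-1 genes were higher in replicate 2, none by 2-fold. Pcdh7 lay below Pcdh1 by a log2 ratio of -0.78 ± 0.22. The estimate of Pcdh11x rested mostly on transcripts annotated as not coding, Pcdh11x-209 (nonsense-mediated decay) with 2.37 and 2.73 TPM and Pcdh11x-207 (retained intron) with 2.26 and 3.35 TPM, a gene singled out after its values were seen. Outside the delta classes, Pcdh12, known from endothelium and placenta, had 4.84 and 4.99 TPM, Pcdh20 had 3.29 and 2.47 TPM, and Pcdh15, the partner of Cdh23 in tip links, had 0.83 and 0.69 TPM. Pcdh12 lay below Cdh5, which is also known from endothelium, by a log2 ratio of -2.50 ± 0.21.

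The alpha cluster lay near 0 TPM apart from its last gene. Pcdhac2, whose first exon is of the C type and is not chosen at random among neurons, had 2.59 TPM in replicate 1 against 3.16 TPM in replicate 2, which was 78.1% ± 1.5 of the TPM of the cluster's 14 rows. Of the 12 rows without a C-type exon none was detected, and together they summed to 0.74 TPM in replicate 1 against 0.83 TPM in replicate 2. The highest were Pcdha4 with 0.12 and 0.19 TPM, Pcdha12 with 0.16 and 0.08 TPM and Pcdha5 with 0.12 and 0.11 TPM. Pcdha1 was listed at 0 in both libraries, where 3 reads would have been 0.027 TPM in replicate 1. Its deposited upper bounds were higher, 0.069 TPM in replicate 1 and 0.078 TPM in replicate 2. Pcdha7 had 0.01 TPM in replicate 1 and was listed at 0 in replicate 2. Pcdhac1, the other alpha gene of the C type, had 3.35 estimated reads in replicate 1 and was listed at 0 in replicate 2.

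The beta genes are single-exon genes with no constant exon, and 14 of 22 were detected, all at low and even levels. The highest were Pcdhb20 with 4.31 TPM in replicate 1 against 4.55 TPM in replicate 2, Pcdhb7 with 3.78 and 3.29 TPM, Pcdhb17 with 3.21 and 3.56 TPM and Pcdhb22 with 2.72 and 2.62 TPM. The lowest were the first genes of the array, Pcdhb1, listed at 0 in both libraries, and Pcdhb2 with 0.23 and 0.38 TPM. The cluster summed to 35.8 TPM in each pool.

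**Figure D2:**
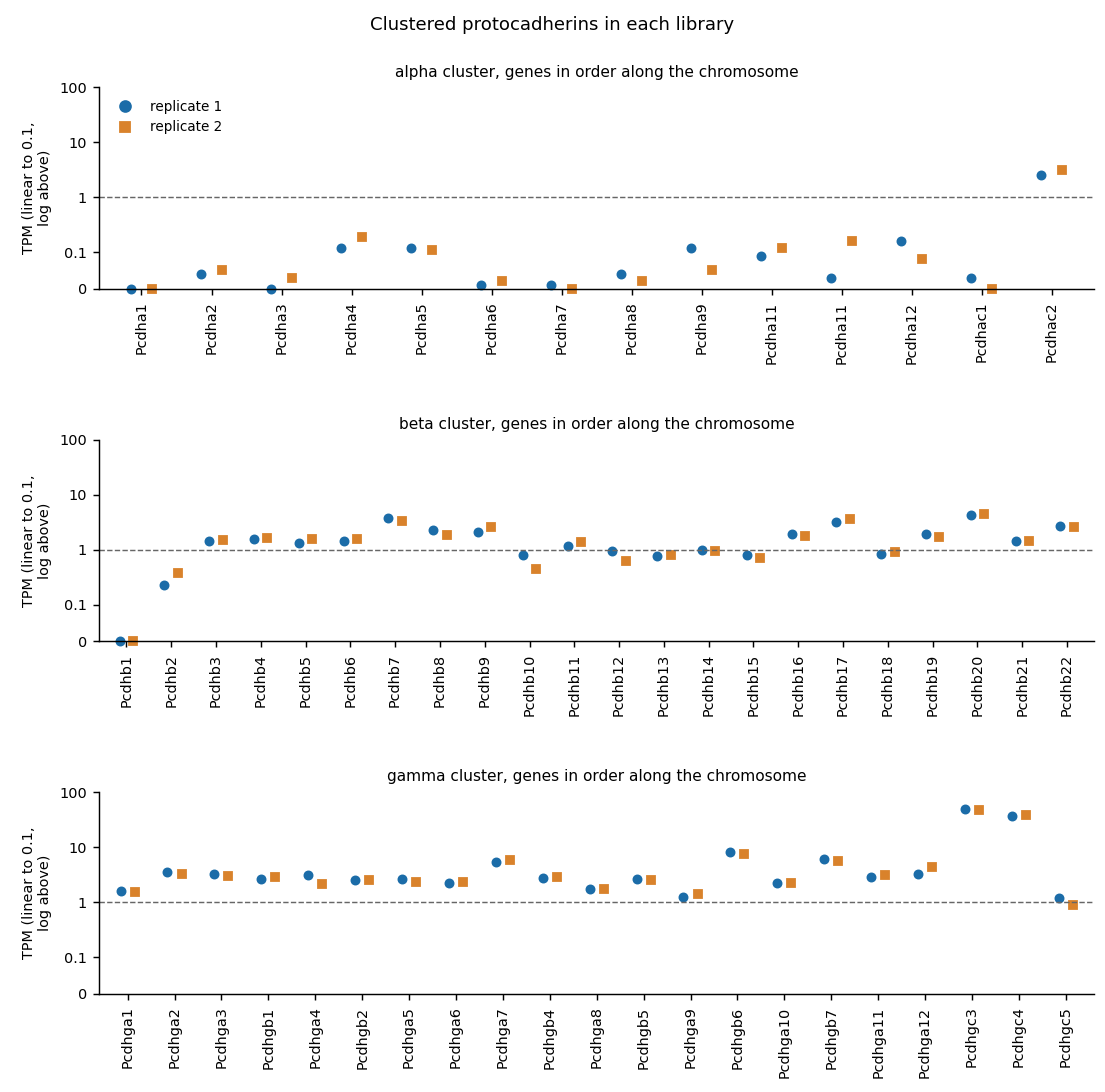
TPM of each clustered protocadherin in replicate 1 (circles) and replicate 2 (squares), in order along the chromosome, on an axis that is linear to 0.1 TPM and logarithmic above, with a dashed line at 1 TPM. Alpha genes lie near 0 except Pcdhac2 with 2.59 and 3.16 TPM, beta genes stay below 5 TPM, and Pcdhgc3 and Pcdhgc4 stand above all other gamma genes, Pcdhgc4 only with its transcript Pcdhgc4-203. Pcdha11 appears for each of its 2 gene rows.

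The gamma cluster was read across its length. Of 21 genes, 20 were detected, and all 18 genes of the A and B types lay between 1.25 and 8.06 TPM, with sums of 57.8 TPM in replicate 1 against 57.0 TPM in replicate 2. Pcdhgb6 with 8.06 and 7.54 TPM and Pcdhgb7 with 6.02 and 5.59 TPM were the highest of these, and Pcdhga9 with 1.25 and 1.39 TPM was the lowest. The C-type genes differed widely from each other. Pcdhgc3 had 50.3 TPM in replicate 1 against 48.2 TPM in replicate 2, Pcdhgc4 had 37.0 and 38.0 TPM, and Pcdhgc5, the last gene of the array, had 1.18 and 0.89 TPM. Pcdhgc3 and Pcdhgc4 held 59.8% ± 0.0859 of the gamma sum of 146 TPM in replicate 1 against 144 TPM in replicate 2. Gamma exceeded beta by a log2 ratio of 2.02 ± 0.01, or 4.05-fold, and alpha by 5.27 ± 0.19, or 38.6-fold.

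How the reads of the shared exons were divided bears on these levels. In GENCODE M21, 2860 to 2864 exonic bases of each alpha row and 2116 to 3157 exonic bases of each gamma gene lie in exons of another member, which was 27.8% to 66.8% of a gamma gene. None of the 35 Cdh genes and non-clustered protocadherins shared a base. The estimated counts were not whole numbers in any of the 21 gamma genes, whereas they were whole in both libraries for 21 of 23 Cdh genes. The exceptions were Cdh11, the highest member, and Cdh24, whose counts were not whole in either library. Among the beta genes only Pcdhb21 and Pcdhb22 shared exonic bases, 455 in all, yet the counts were whole in both libraries for only 8 of 22. Counts that are not whole come from reads divided among features. A single alpha or gamma gene, or a beta gene with such counts, has a less certain level than a Cdh gene with whole counts. The reads summed over the members of a cluster do not depend on the division among those members. Their TPM does, since the reads given to a transcript are divided by its length. Both depend on the division with genes that the rule leaves out, such as Pcdhgb8 with 57.3 and 98.4 reads. Pcdhgb8 shares 2116 exonic bases with Pcdhgc3 on the same strand.

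Pcdhgc4 was the plainest case. Its transcript Pcdhgc4-203, of 2272 nt, has 2119 bases (93.3%) in exons of other gamma genes and 153 bases of its own. It held 32.7 of the gene's 37.0 TPM in replicate 1 and 32.9 of 38.0 TPM in replicate 2. The transcript with the gene's own long first exon, Pcdhgc4-201, had 0.51 and 0.88 TPM. For Pcdhgc3 the long transcript, Pcdhgc3-201, had 43.8 and 44.7 TPM, or 87.0% and 92.8% of the gene. With the TPM of Pcdhgc4-203 subtracted, the gamma sum was 114 TPM in replicate 1 against 111 TPM in replicate 2. The log2 ratio of gamma to beta was then 1.65. The subtraction takes the reads of that transcript out of the cluster and gives them to no other gamma transcript. Pcdhgc4 itself then ranked 5 in the cluster, and the log2 ratio of Pcdhgc3 to Pcdhgc4 was 3.36, against 0.39 ± 0.07 with the transcript. These alternatives were chosen after the values were seen. An antisense gene, BC037039, overlaps 1559 exonic bases of Pcdhgc3 and had 4.00 and 2.91 TPM. Gm26672 runs opposite to Pcdhga10 over 2613 exonic bases, to Pcdhga11 over 1381, to Pcdhgb7 over 771 and to Pcdhga12 over 422, and had 1.29 and 1.99 TPM. Likewise 4932441J04Rik overlaps 2235 exonic bases of Pcdh7 and had 1.12 and 1.28 TPM. In the alpha cluster, Gm10544 runs opposite to 852 exonic bases of Pcdha11 and had 0.67 and 0.82 TPM. Gm38225 runs opposite to 393 exonic bases of Pcdha4 and had 0.21 and 0.05 TPM. Since the strand setting is not given in the sources used here, reads of a gene and of its antisense partner cannot be told apart.

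**Figure D3:**
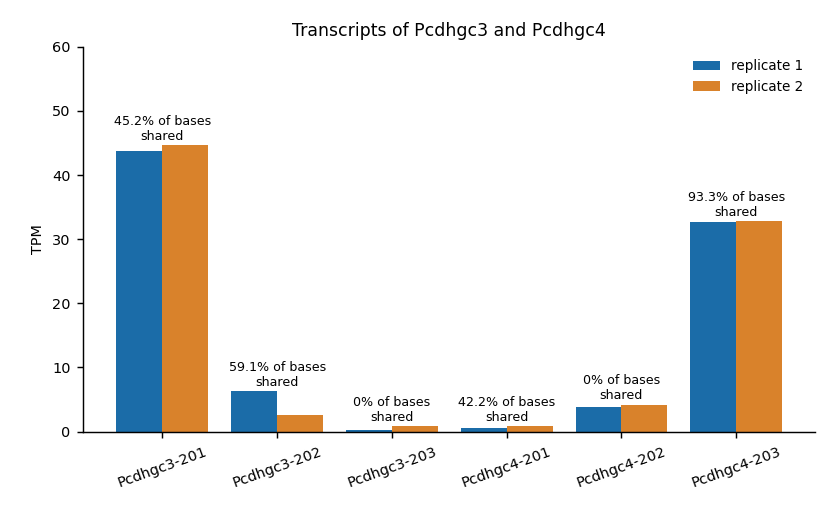
TPM of the 3 annotated transcripts each of Pcdhgc3 and Pcdhgc4 in replicate 1 (left bars) and replicate 2 (right bars), with the percentage of each transcript's bases that lie in exons of other members. Pcdhgc3-201 leads Pcdhgc3 with 43.8 and 44.7 TPM, and Pcdhgc4-203, with 93.3% of its bases shared, leads Pcdhgc4 with 32.7 and 32.9 TPM.

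Transcript shares were also taken for the other members averaging 10 TPM or more with several annotated transcripts. Cdh1-201 made up 99.5% of Cdh1 in replicate 1 and 99.4% in replicate 2, and Pcdh18-201 made up 82.7% and 85.5% of Pcdh18. Cdh2 was divided between coding transcripts of unlike length: Cdh2-202, of 3785 nt, held 60.3% and 64.8%, and Cdh2-201, of 4843 nt, held 32.2% and 26.1%. Pcdh9-205, a coding transcript of 3014 nt, held 66.2% and 67.2% of Pcdh9, and Pcdh1-202 held 78.1% and 71.8% of Pcdh1. Cdh13-201 held 68.4% and 69.8% of Cdh13, and retained-intron transcripts made up most of the rest. The leading transcript was the same in both pools for each of these genes.

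The pools differed little in the members. A difference was taken as log2 of TPM plus 0.1 in replicate 1 over replicate 2, centred on the median gene, for genes averaging 1 TPM or more, and a gene was called apart past 2-fold. Of 60 members that passed the limit on mean TPM, 1, Cdh15, was called higher in replicate 1, against 2.47% of all genes and 1.98% of protein-coding genes, and 0 were called higher in replicate 2, against 1.16% and 0.451%. In either direction 3.63% of all genes and 2.43% of protein-coding genes were called. The members' share is near the background and is no result about them. The median absolute log2 difference was 0.14 over the members, 0.12 over protein-coding genes and 0.13 over all genes. By direction, 22 of the 60 were higher in replicate 1 and 38 in replicate 2, with a median of -0.07, against a median of 0.00 over protein-coding genes. The non-clustered protocadherins had a median of -0.22, with 2 of 11 higher in replicate 1, and the gamma genes a median of 0.00, with 11 of 21 higher in replicate 1.

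**Figure D4:**
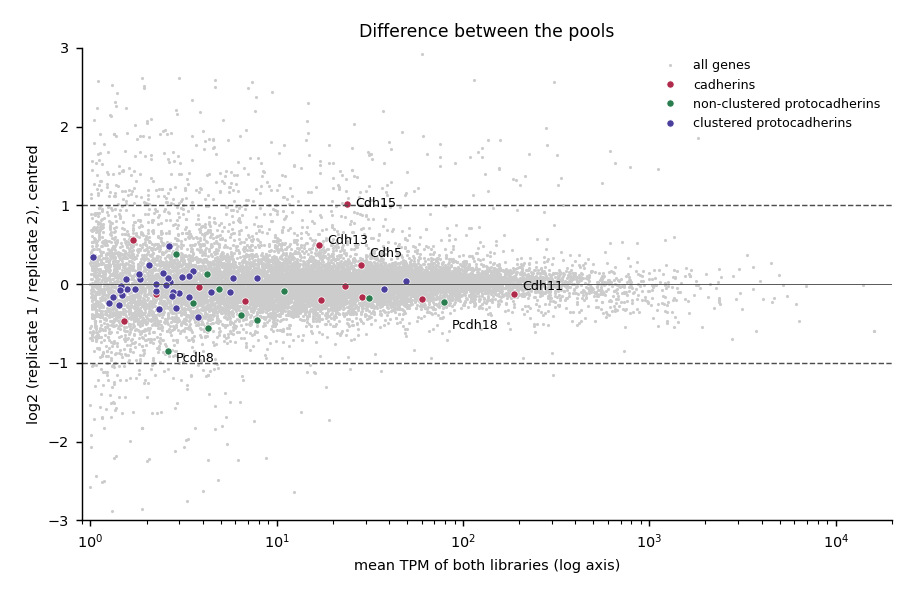
Log2 of replicate 1 over replicate 2, centred on the median gene, against mean TPM (log axis) for genes averaging 1 TPM or more (grey) and the members in colours, with dashed lines at 2-fold; 102 genes lie outside the vertical axis. Cdh15 lies at 1.02, just past the line, and Pcdh8 at -0.85 is the lowest member.

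Cdh15 stood at the limit of the call. Its 1978 reads in replicate 1 and 1168 reads in replicate 2 gave a log2 difference of 1.02. The difference was 0.98, under 2-fold, with a pseudocount of 1 or with the deposited posterior mean TPM. With counts scaled between the libraries by TMM it was 1.03 and without centring 1.04, both past 2-fold. The next member on the inside of the limit in absolute size was Pcdh8 at -0.85, followed by Pcdh10 at -0.56 and Cdh23 at 0.56. Markers of muscle moved with Cdh15, while Cdh2, drawn beside the same markers, lay at -0.02. All 10 listed muscle genes were higher in replicate 1, 8 of them past 2-fold, with a median log2 difference of 1.39 and sums of 6967 TPM in replicate 1 against 2190 TPM in replicate 2. Acta1 of the sarcomere had 2862 and 779 TPM, Actc1 1632 and 584 TPM, Myl1 1157 and 407 TPM, and the lowest of the list, the acetylcholine receptor subunit Chrna1, 20.4 and 8.88 TPM. The myogenic factors Myod1 and Myog differed by 0.68 and 0.97. The part of this difference in muscle RNA in the value of Cdh15 was not tested, and no muscle marker was at 0 in either pool.

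Cdh15 is shown by sequence for the E-boxes (CANNTG, which reads the same on both strands) before its RefSeq start, since Myod1 and Myog bind some sites of this form. The 250 bases before that start (GRCm38.p6, chr8:122848124-122848373, plus strand) hold 3 E-boxes, and the window lies inside the longer first exon that GENCODE M21 gives the gene. The sites are printed with 12 bases on either side and the E-box in capitals, at chr8:122848126-122848155, chr8:122848227-122848256 and chr8:122848330-122848359.
Cdh15 site of CATATG: aggcactgatcaCATATGctgtcactcaga
Cdh15 site of CATGTG: caggcccacctaCATGTGctgtcactcatc
Cdh15 site of CACGTG: cgccccaccacaCACGTGcagtcccttggc
At least 3 E-boxes in the window were found in 3 of 25 promoters of members (12%) and in 12.2% of the 32851 promoters in the RefSeq table, so the number is not unusual. None of the 3 Cdh15 sites is CAGCTG, a form of E-box that 8% of the members' promoters and 13.0% of the table held. For comparison, the windows before Pcdh18 (chr3:49757317-49757566, minus strand) and Cdh6 (chr15:13173676-13173925, minus strand), also above 10 TPM and in the table, are given whole in the direction of the gene, again with E-boxes in capitals.
Pcdh18: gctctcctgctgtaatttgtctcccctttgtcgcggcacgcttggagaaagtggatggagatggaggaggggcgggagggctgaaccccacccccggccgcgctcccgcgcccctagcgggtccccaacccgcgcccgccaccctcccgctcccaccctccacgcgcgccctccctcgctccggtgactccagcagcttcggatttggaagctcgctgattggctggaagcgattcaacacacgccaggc
Cdh6: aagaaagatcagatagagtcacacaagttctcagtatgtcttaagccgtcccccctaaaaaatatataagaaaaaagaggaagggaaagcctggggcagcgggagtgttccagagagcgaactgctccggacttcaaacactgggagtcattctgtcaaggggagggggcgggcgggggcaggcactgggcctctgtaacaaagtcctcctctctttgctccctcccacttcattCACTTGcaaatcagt
The Pcdh18 window has no E-box, 68% G and C and 23 CpG, an observed over expected CpG ratio of 0.81. The Cdh6 window has 1 E-box and a ratio of 0.37, and the Cdh15 window a ratio of 0.26. Promoters of 22 of the 91 symbols matched the table. No clustered protocadherin was among them, nor were Cdh11, Cdh1, Cdh3, Cdh5, Cdh2 and Cdh13, so the shares do not describe the whole family. Cdh7 and Pcdh9 entered with more than a single window. The windows of Pcdh9, also a member above 10 TPM, are not printed and had no E-box and a CpG ratio of 0.71 each. The median CpG ratio of the matched windows was 0.57, against 0.37 over the table, and 52% held an E-box, against 66.2% of the table. A match to these letters is a description of the window and not evidence of binding.

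Other members are set beside the markers of the cells in which they are known. The 8 endothelial markers were all higher in replicate 1, with sums of 318 TPM in replicate 1 against 271 TPM in replicate 2 and a median of 0.19. Cdh5 was higher in replicate 1 by 0.24, within the range of those markers, while Pcdh12 differed by -0.07. Among the endothelial genes Egfl7 had 103 and 88.7 TPM, Esam 50.7 and 41.3 TPM, Pecam1 46.1 and 36.4 TPM, and Tek, the lowest, 13.4 and 12.04 TPM. The 7 epidermal markers summed to 4441 and 4197 TPM with a median of 0.06, and 4 of them were higher in replicate 1. Krt14 had 1102 and 1029 TPM, Krt15 1062 and 999 TPM, Krt1 988 and 864 TPM, and Epcam 43.3 and 44.6 TPM. Cdh1 at -0.19 and Cdh3 at -0.16 lay on the other side of 0 from that median.

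Fibroblast markers summed to 7371 TPM in replicate 1 against 6554 TPM in replicate 2 with a median of 0.02, beside Cdh11 at -0.13. Col3a1 had 3228 and 2793 TPM, Col1a2 2547 and 2201 TPM, Dcn 806 and 764 TPM, and Twist2, the lowest, 56.0 and 58.6 TPM. Osteoblast markers, all 7 higher in replicate 1, summed to 775 and 408 TPM with a median of 0.76, the largest after muscle. Ibsp had 388 and 226 TPM, Spp1 286 and 118 TPM, Alpl 58.0 and 35.8 TPM, and Bglap 1.47 and 0.73 TPM. Cdh11, which osteoblasts are known to carry, did not stand higher in that pool. The Schwann cell markers summed to 53.5 and 50.6 TPM with a median of 0.05. They were led by Erbb3 with 17.6 and 16.8 TPM, S100b with 7.99 and 9.67 TPM and Fabp7 with 8.13 and 7.64 TPM, and Foxd3 was the lowest with 0.60 and 0.87 TPM. Cdh19, with 83 and 71 reads and a mean of 0.90 TPM, below the limit for a difference, lay at 0.62 computed in the same way. After centring, all 6 neuron markers averaging 1 TPM or more lay below 0 (median -0.20), Stmn2 by -0.02 and with a TPM slightly higher in replicate 1, and the list summed to 42.0 and 47.8 TPM. Map2 had 18.1 and 19.0 TPM, Stmn2 9.86 and 9.81 TPM, Nefl 7.69 and 11.5 TPM, and Rbfox3 0.28 and 0.21 TPM. The parts of these cell types in the members' values were not tested.

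No listed cell type marker was at 0 in either library. The lists mark cell types, so the label of limb was not tested by them. Cartilage genes summed to 1248 and 1299 TPM, and after centring all 6 lay below 0 (median -0.06), although Cnmd had a slightly higher TPM in replicate 1. They were led by Col2a1 with 689 and 731 TPM, Cnmd with 198 and 196 TPM and Col9a1 with 144 and 147 TPM, with Acan lowest at 26.4 and 29.3 TPM. Blood genes summed to 30598 and 30999 TPM with a median of -0.02. The globin genes Hba-a2, Hbb-bs and Hba-a1 led with 13974 and 13900 TPM, 6903 and 6890 TPM and 5206 and 5180 TPM. The division of reads between near-identical globin copies, such as Hba-a1 and Hba-a2, is uncertain. No member is set beside the cartilage or blood genes.

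**Figure D5:**
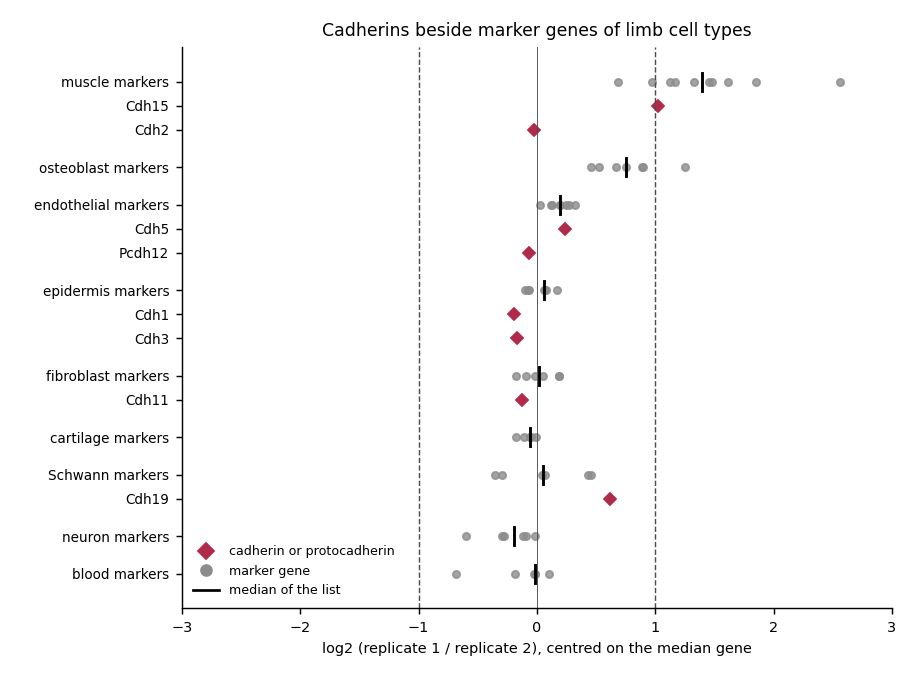
Log2 of replicate 1 over replicate 2, centred on the median gene, for the marker genes of 9 cell types, for genes averaging 1 TPM or more (grey circles, median as a black bar) and for members known from those cells (diamonds, Cdh19 with a mean of 0.90 TPM included), with dashed lines at 2-fold. Cdh15 at 1.02 lies among the muscle markers, whose median is 1.39, and Cdh5 at 0.24 lies among the endothelial markers, whose median is 0.19. Cdh11 at -0.13 lies among the fibroblast markers. Cdh2 at -0.02 is lower than every muscle marker, and Pcdh12 at -0.07 is lower than every endothelial marker. Cdh1 at -0.19 and Cdh3 at -0.16 are lower than every epidermal marker, and Cdh19 at 0.62 is higher than every Schwann marker.

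Of the cytoplasmic partners, Ctnnb1 and Jup stood above every cadherin in both libraries. Of 11 catenins and linkers 8 were detected and 0 were past 2-fold. Ctnnb1, beta-catenin, which also carries Wnt signals, had 387 TPM in replicate 1 against 401 TPM in replicate 2, Jup, plakoglobin of adherens junctions and desmosomes, had 257 and 253 TPM, and Ctnna1, alpha-E-catenin, had 110 and 109 TPM. The neural alpha-catenin Ctnna2 was the lowest with 0.64 and 1.02 TPM. All 6 listed proteases that cut cadherins, with their subunits, were detected, led by the gamma-secretase subunit Ncstn with 101 and 88.3 TPM, and including Adam10, the sheddase of Cdh1 and Cdh2, with 50.7 and 51.8 TPM. Furin, which removes the cadherin propeptide, was the lowest with 10.8 and 11.2 TPM. All 6 listed transcriptional repressors of Cdh1 were detected, with Twist2, which also stands in the fibroblast list, at 56.0 and 58.6 TPM, Snai2 at 58.7 and 55.8 TPM and Snai1 at 51.7 and 43.3 TPM. Twist1, the lowest, had 23.8 TPM in replicate 1 against 36.2 TPM in replicate 2.

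All 12 listed regulators of the clustered protocadherins were detected, at levels well above those of the alpha genes. Ctcf, which with cohesin loops enhancers to the chosen first exon, had 78.7 TPM in replicate 1 against 87.8 TPM in replicate 2, and the cohesin subunit Smc1a had 84.2 and 79.2 TPM. The DNA methyltransferases Dnmt1 with 58.7 and 59.7 TPM and Dnmt3b with 5.28 and 5.58 TPM were the third and the last of the list. Of the 10 giant and seven-pass cadherins and their modifiers, 6 were detected: Fat1 led with 27.2 and 30.6 TPM, then the kinase Fjx1, which modifies the pathway of Fat and Dachsous proteins, with 13.5 and 20.4 TPM and Dchs1 with 11.3 and 13.5 TPM, and Celsr3 had 0.07 TPM in both. All 8 listed cytoplasmic partners of protocadherins were detected, led by subunits of the actin-regulating WAVE complex, Cyfip1 with 85.9 and 83.0 TPM, Nckap1 with 56.0 and 62.3 TPM and Abi1 with 43.8 and 46.8 TPM, and Ptk2b, the kinase held by clustered protocadherin tails, was lowest with 2.95 and 2.68 TPM. In these partner lists 0 genes were past 2-fold in either direction, against 2.43% of protein-coding genes in either direction.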

How the data were processed

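Total RNA longer than 200 nt from E15.5 limb was sequenced in 2 pools. Reads were placed on mm10 per the labels, with GENCODE M4 as annotation per the deposited sample records; the aligner, the counting program and the strand setting were not given in the sources used here. The authors deposited, per the file headers, expected counts (estimated reads, shared where they match several genes), TPM, posterior mean TPM with interval bounds, and, for transcripts, a percent of the gene; these values were used as deposited. TPM was scaled over all rows, spike-ins included. Symbols and coordinates came from GENCODE M21 by gene identifier (42462 of 43346 genes). A count of 0 allows 3 reads, which is 0.0855 CPM in replicate 1 and 0.0718 in replicate 2, for counting error only.

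Levels were means ± SD (n = 2). Log2 differences used a pseudocount of 0.1, centring on the median gene (shift 0.02) and a mean TPM of at least 1; the call was 2-fold. TMM scaling of rounded expected counts (edgeR 4.0.16, R 4.3.3) was an alternative, as were other pseudocounts, limits and units; other steps used Python 3.11.15 with pandas 2.3.3 and numpy 2.4.6. Promoters came from RefSeq (GRCm38.p6); protein sequences were not used here. Members, lists and pairs were chosen with earlier results of these data known. Named were every Cdh and non-clustered Pcdh gene, the 4 highest and 2 lowest genes and the C-type genes of each cluster, genes of the 13 pairs, members past 2-fold, and the 3 highest and the lowest gene of each list. Of these, 2 listed genes are not reported here.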

Additional observations from a re-analysis of the deposited data

Results flagged for a closer look

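Pcdhgb8, a gene of the gamma cluster that GENCODE M21 calls a polymorphic pseudogene and that the protein-coding rule therefore leaves out, had signal in both libraries. It had 0.57 TPM in replicate 1 against 0.80 TPM in replicate 2, a mean of 0.685 TPM, from 57.3 and 98.4 estimated reads, above the 3 reads that a count of 0 allows. The A-type and B-type gamma genes included in the report lay between 1.25 and 8.06 TPM. No group of the series has the 4 samples needed to look for a sample apart from its group.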

How the results depend on the processing

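No paired analysis was possible because the series has 1 group. The total detected held within 1.5 times under every limit tried: 68 members at 0.5 TPM, 44 at 2 TPM, 81 at 10 reads, and 59 to 61 with either pool left out. By class, 5 counts moved more: beta to 5 and other Cdh genes to 1 at 2 TPM, and type II to 13, alpha to 5 and other Cdh genes to 4 at 10 reads. The count past 2-fold was 0 with a pseudocount of 1 or the posterior mean TPM and 2 with no limit on mean TPM, when a Pcdha11 row under 0.2 TPM joined. It stayed at 1 with counts scaled by TMM or with no centring. The members' share of gene TPM was 0.201% of counts and 0.0751% of the whole column, and 0.0783% to 0.0802% with either pool left out. The clustered share was 24.0% of counts and 24.1% to 25.0% with either pool left out. It was 21.1% with the TPM of Pcdhgc4-203 subtracted and its reads given to no other transcript. The log2 ratio of gamma to beta was 1.65 after the same subtraction and 2.01 to 2.03 with either pool left out. The log2 ratio of type II to type I was 0.71 to 0.84 with either pool left out. Pcdh7 over Pcdh1 turned to 0.12 on counts, which are not divided by length. Of 54 named levels, 14 moved by more than their SD with the posterior mean, 5 of them over 1.5 times, all 5 at a mean TPM below 1. Depth limits the lowest genes, where 1 read more or less changes the value.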
